A study of Mus musculus with 188 samples.

Results

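RNA levels in the aorta of AXB and BXA recombinant inbred strains were compared with those of BXH strains. The AXB/BXA family comprised every strain whose label starts with AXB or BXA, which gave 28 strains (15 AXB and 13 BXA) on 59 arrays, and the BXH family comprised 10 strains on 21 arrays, together 38 of the 94 strains and 80 of the 188 arrays of the series. AXB and BXA strains descend from reciprocal crosses of A/J with C57BL/6J, and BXH strains from crosses of C57BL/6J with C3H/HeJ. All mice of both families were labelled wild-type males aged 16 weeks, given chow and no treatment. RNA of the aorta was hybridised to Affymetrix HT_MG-430A arrays, and levels are given on the log2 scale. Each strain entered as 1 mean over its arrays (1 to 4; BXA1/PgnJ and BXH10/TyJ had 1 array each), so the strain was the replicate. The parental strains A/J (2 arrays), C57BL/6J (3 arrays) and C3H/HeJ (2 arrays) belonged to neither family.

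A recombinant inbred strain is made by crossing inbred parents and then inbreeding the descendants until each locus is fixed for the allele of one parent or the other. Strains of a family are therefore mosaics of the same parental genomes. Because C57BL/6J is a parent of both families, the family contrast sets a mix of A/J and C57BL/6J alleles against a mix of C3H/HeJ and C57BL/6J alleles. At a locus, the share of strains with the C57BL/6J allele can also differ between the families. C3H/HeJ is known for a defective allele of the endotoxin receptor Tlr4, and A/J for defective alleles of dysferlin (Dysf) and complement component 5 (Hc).

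Markers of the vessel wall were present in both families. The smooth muscle actin Acta2 lay at 12.50 in AXB/BXA and 12.34 in BXH, the endothelial gene Cdh5 at 6.16 and 6.20, and the brown fat gene Ucp1 at 12.70 and 12.69. RNA of neighbouring tissue was unevenly spread. On a score that averages the centred levels of thymocyte genes, 16 of 59 AXB/BXA arrays and 3 of 21 BXH arrays stood above 1, and on a score of squamous epithelium genes 15 and 2 did. On either score, 30 AXB/BXA and 5 BXH arrays were above 1. In bulk tissue, a different share of cells of a type and a different RNA level per cell cannot be told apart. The likeness of arrays of a strain was read over the 150 probe sets that separated the strains of the series best. These were chosen on the same arrays, so a high likeness within strains is partly built in. Without this choice of probe sets, the median correlation was 0.974 within strains and 0.964 between strains. Over the 150, the median correlation of an array with its nearest array of the same strain was 0.979. All 20 BXH arrays with a partner had it as their nearest array in the series, while 5 of 58 AXB/BXA arrays were nearer to another strain. BXA16/PgnJ stood apart: its replicates 1 and 2 correlated at 0.969 with each other but at 0.667 and 0.708 with replicate 3, and replicate 3 lay over 1 log2 unit from their mean at 50 of the 150 probe sets. The other such arrays were both AXB19/PgnJ arrays, which were nearest to the sister line AXB19b/PgnJ, and 1 each of AXB23/PgnJ and BXA14/PgnJ. Which BXA16/PgnJ arrays carry the labelled strain cannot be told from these values. Results are given with all arrays. The values of the BXA16/PgnJ arrays are given for Paip1 and Cox18, and the effect of this strain on the count of calls is given further on.

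Across 22327 probe sets, 68 differed between the families at an adjusted p below 0.05 (limma, Benjamini-Hochberg over all probe sets), which is 0.305% of those tested. Of these, 20 were higher in AXB/BXA (0.0896%) and 48 higher in BXH (0.215%), and 1587 probe sets had an unadjusted p below 0.05. Absolute differences of the 68 ran from 0.21 to 2.32 with a median of 0.61, and 9 exceeded 1. No probe set in the table had family ranges that did not overlap, so even the strongest differences left some strains of one family inside the range of the other. Of the 68 probe sets, 50 carried 1 gene symbol and covered 44 genes, and 18 were unnamed. The unnamed ones included 1450984_at (0.94 higher in AXB/BXA) and 1454904_at (1.09 higher in AXB/BXA), and 1418701_at (1.10 higher in BXH) and 1449716_s_at (0.78 higher in BXH). Some of the called probe sets were dim: 22 of the 68 had a mean below 4.34, the highest strain mean of Xist, which is silent in males. No share over all probe sets is given to set beside the 22. Only 29 of the 68 lay below the median level of all probe sets, so dimness was not particular to the calls.

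**Figure D1:**
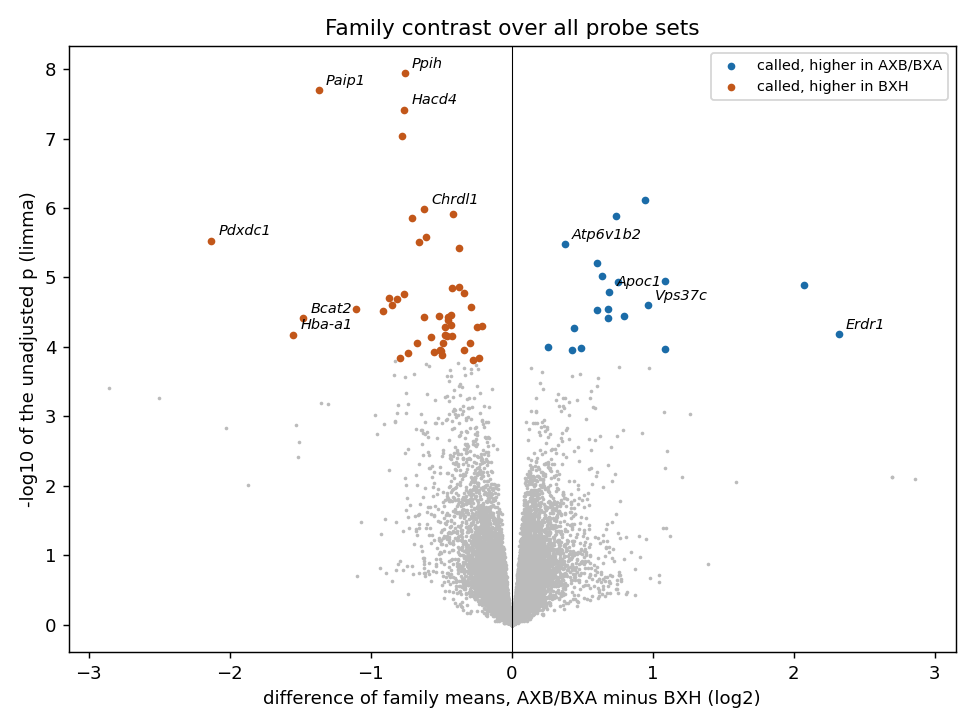
Difference of family means (AXB/BXA minus BXH, log2, horizontal axis) against -log10 of the unadjusted limma p (vertical axis) for 22327 probe sets. The 20 called probe sets higher in AXB/BXA are blue and the 48 higher in BXH are orange; Ppih, Paip1 and Hacd4 have the smallest p of the named genes, and Erdr1 has the widest difference among those called.

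The called genes are described by the known role of each; this order was chosen after the calls were seen, and no role was tested as a group. The named genes with the smallest p were Ppih and Paip1, each by a dim probe set higher in BXH. Ppih encodes cyclophilin H, a peptidyl-prolyl isomerase of the spliceosome. Its strain means ran from 3.70 to 4.69 (median 4.07) in AXB/BXA and from 4.09 to 5.33 (median 5.02) in BXH. All 10 BXH strains lay above the AXB/BXA median and 7 lay above its highest strain. The difference was -0.76 (SE 0.11, adjusted p = 0.000225), with means of 4.10 ± 0.25 (SD, n = 28 strains) and 4.86 ± 0.38 (n = 10). The AXB/BXA mean lies below the 4.34 reached by Xist, so no fold is given. Of the other 3 probe sets of Ppih, 1431506_s_at was also higher in BXH (-0.43, adjusted p = 0.0258), and 1429832_at (-0.27, adjusted p = 0.104) and 1431505_at (-0.16, adjusted p = 0.122) did not pass. Paip1, whose protein binds the poly(A)-binding protein and stimulates translation, had the same adjusted p of 0.000225 and a difference of -1.37 (SE 0.19). In AXB/BXA its probe set ran from 2.88 to 4.02 with a median of 3.08, and in BXH from 2.96 to 5.64 with a median of 4.85. The BXH strains fell into separate clusters: BXH4/TyJ, BXH9/TyJ and BXH6/TyJ lay between 2.96 and 3.17, and the other 7 between 4.57 and 5.64, above every AXB/BXA strain. The highest AXB/BXA strain for Paip1 was BXA16/PgnJ, whose arrays read 5.09, 3.77 and 3.21; with only its replicate 3 the Paip1 difference was -1.40 (adjusted p = 5.41e-05). A second Paip1 probe set was brighter on average (4.70 against 3.47) and had a difference of 0.44 in the other direction that did not pass (adjusted p = 0.254).

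Hacd4, Gnpat, Abcd2, Srd5a3 and Pla2g2d, which act on lipids, were each called higher in BXH. Hacd4 encodes a 3-hydroxyacyl-CoA dehydratase of the elongation of very long chain fatty acids. Its strain means ran from 5.07 to 6.08 (median 5.61) in AXB/BXA and from 5.71 to 6.94 (median 6.34) in BXH, and 8 of the 10 BXH strains exceeded every AXB/BXA strain. The Hacd4 difference was -0.76 (SE 0.11 and adjusted p = 0.000286). Gnpat, the peroxisomal acyltransferase that starts ether lipid synthesis, ran from 7.65 to 8.98 (median 8.02) in AXB/BXA and from 8.51 to 9.53 (median 9.01) in BXH, with a difference of -0.77 (adjusted p = 0.0162). For Gnpat it was the AXB/BXA strains that spread, with an SD of 0.47 against 0.29 in BXH. Abcd2, a peroxisomal transporter of very long chain fatty acids, differed by -0.79 (adjusted p = 0.0485), with 4.55 ± 0.51 in AXB/BXA and 5.34 ± 0.57 in BXH. Srd5a3, the polyprenol reductase that makes dolichol for protein glycosylation, differed by -0.71 on 1439241_x_at (adjusted p = 0.00347). Its other probe sets did not pass: the brightest differed by -0.09 (adjusted p = 0.921), and the others by 0.06 and -0.24 (adjusted p = 0.940 and 0.878). The secreted phospholipase Pla2g2d was higher in BXH on both of its probe sets (-0.55 and -0.50, adjusted p = 0.0424 and 0.0443).

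Pdxdc1, Bcat2 and Cox18 encode an enzyme family member and mitochondrial proteins. The pyridoxal-dependent decarboxylase family member Pdxdc1 was split within BXH on 1419327_at. Its 28 AXB/BXA strains lay between 3.09 and 3.61, while BXH7/TyJ, BXH9/TyJ, BXH8/TyJ, BXH20/KccJ and BXH10/TyJ lay between 3.17 and 3.68 and the other 5 BXH strains between 7.34 and 7.83. The family difference was -2.13 (adjusted p = 0.00572), with 5 of 10 BXH strains near the AXB/BXA level. A second Pdxdc1 probe set, 1452705_at, was called in the opposite direction (2.07, adjusted p = 0.0151): the same 5 strains that were high on the first lay between 3.90 and 4.90 on the second, and the other 5 between 8.50 and 9.10, within the AXB/BXA range of 8.10 to 9.12. The remaining Pdxdc1 probe set differed by 0.31 and did not pass (adjusted p = 0.247). Pdxdc1 was the only called gene with probe sets called in both directions, so these data give no direction for the gene as a whole. Bcat2, the mitochondrial aminotransferase of branched-chain amino acids, ran from 4.47 to 7.28 (median 5.75) in AXB/BXA and from 5.81 to 9.09 (median 7.47) in BXH, a difference of -1.48 (adjusted p = 0.0217). Cox18, an assembly factor of cytochrome c oxidase, differed by -0.66 (adjusted p = 0.00572), and all 10 BXH strains lay above the AXB/BXA median. The highest AXB/BXA strain for Cox18 was again BXA16/PgnJ, with 7.34, 7.82 and 6.71 on its arrays.

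Chrdl1, Fzd4, Apcdd1, Chst1, Sgcb and Tmem45b were called higher in BXH. Chrdl1, a secreted BMP antagonist, differed by -0.62 (adjusted p = 0.00347), the Wnt and norrin receptor Fzd4 by -0.62 (adjusted p = 0.0217), and the Wnt inhibitor Apcdd1 by -0.74 (adjusted p = 0.0430). The Chrdl1 call rests on its dimmer probe set, and the brighter one differed by 0.005 (adjusted p = 0.995). The dimmer Fzd4 probe set differed by 0.04 (adjusted p = 0.949). A second Apcdd1 probe set was also called (-0.57, adjusted p = 0.0306), and the dimmest one was not (-0.04, adjusted p = 0.948). Chst1, a sulfotransferase of keratan sulfate, ran from 4.20 to 6.06 in AXB/BXA and from 4.78 to 6.80 in BXH (difference -0.91, adjusted p = 0.0205). The muscle membrane protein beta-sarcoglycan (Sgcb) differed by -0.52 (adjusted p = 0.0217). The membrane protein gene Tmem45b differed by -0.85 (adjusted p = 0.0202), with AXB/BXA spread from 8.77 to 10.48 and BXH held between 9.85 and 10.79.

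A globin and a kallikrein probe set were also higher in BXH, and both belong to families of near-identical genes whose members these arrays may not tell apart. The alpha globin probe set 1417714_x_at of Hba-a1 lay at 9.54 ± 0.70 in AXB/BXA and 11.10 ± 1.51 in BXH (difference -1.55, adjusted p = 0.0306). The brighter Hba-a1 probe set, at a mean level of 12.88, differed by -0.10 (adjusted p = 0.908), but its highest strain mean of 13.47 is at the highest level on these arrays, so a difference could be hidden there. The red cell gene Alas2 lay at 8.32 and 8.77 (adjusted p = 0.886). The kallikrein probe set Klk1b9 stayed between 2.57 and 2.84 in all AXB/BXA strains, at the floor of the arrays, while BXH strains ran from 2.57 to 4.85 (difference -0.82, adjusted p = 0.0176). The macrophage complement receptor Vsig4 differed by -0.46 (adjusted p = 0.0306), while the macrophage markers Cd68 (adjusted p = 0.887) and Csf1r (adjusted p = 0.938) did not pass. The further genes called higher in BXH were D930016D06Rik, Epb41l1, Rpl17, Cpeb3, B3galt2, Ntpcr, Lix1, Fam118a, Eid1, Ctdspl, Thyn1, Rnf121, Enpp4 and St6galnac4, with differences from -0.67 (Epb41l1) to -0.21 (St6galnac4). For Rpl17, St6galnac4, Thyn1, Epb41l1, Cpeb3 and Eid1 the brightest probe set did not pass. It differed by 0.04 for Rpl17 (adjusted p = 0.970), 0.03 for St6galnac4 (adjusted p = 0.983) and -0.12 for Thyn1 (adjusted p = 0.671). For Epb41l1, Cpeb3 and Eid1 it differed by -0.39, -0.42 and -0.13 (adjusted p = 0.281, 0.270 and 0.899).

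Of the 44 named genes, 11 had their strongest probe set higher in AXB/BXA. Atp6v1b2, the B2 subunit of the proton pump that acidifies lysosomes, had a small difference of 0.37 but little spread. It ran from 8.60 to 9.52 (median 8.90) in AXB/BXA and from 8.40 to 8.73 (median 8.54) in BXH, and 24 of 28 AXB/BXA strains exceeded every BXH strain (adjusted p = 0.00572). The apolipoprotein of plasma lipoproteins Apoc1 ran from 9.83 to 11.29 (median 10.54) in AXB/BXA and from 9.02 to 10.42 (median 9.92) in BXH. All 10 BXH strains lay below the AXB/BXA median for Apoc1, 5 of them below every AXB/BXA strain, and the difference was 0.69 (SE 0.14, adjusted p = 0.0162), a 1.61-fold higher level in AXB/BXA. Vps37c, a subunit of the ESCRT-I complex of endosomal sorting, lay at 7.79 ± 0.35 in AXB/BXA and 6.83 ± 0.94 in BXH (difference 0.96, adjusted p = 0.0202), with 5 BXH strains at or below 6.58 and the other 5 at 7.49 or above. Its other probe set differed by 0.19 (adjusted p = 0.823). Galnt2, which starts mucin-type O-glycosylation, was called on 2 of its 3 probe sets (0.75 and 0.61, adjusted p = 0.0146 and 0.0202) but not on the brightest (0.05, adjusted p = 0.955).

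Erdr1, erythroid differentiation regulator 1, had the widest difference of the 44 called genes (2.32, SE 0.52, adjusted p = 0.0306). AXB/BXA strains ran from 6.16 to 11.73 (median 9.96) and BXH strains from 4.09 to 10.06 (median 8.14), with SDs of 1.15 and 2.09. The parental means were 8.47 in A/J, 9.02 in C57BL/6J and 8.79 in C3H/HeJ. Smad4, the shared mediator of TGF-beta and BMP signals, was higher in AXB/BXA on 1422485_at (0.68, adjusted p = 0.0217) and not on its 2 brighter probe sets (-0.12 and -0.19, adjusted p = 0.905 and 0.799). The transcription factor Klf9 was called on a dim probe set (0.64, adjusted p = 0.0135; mean level 4.33), and its probe sets at mean levels of 9.74 and 10.65 differed by 0.13 and 0.09 (adjusted p = 0.950 and 0.955). The remaining genes called higher in AXB/BXA were 4833420G17Rik (0.68), the centrosome linker gene Cep68 (0.49), the hydrolase-domain gene Hdhd2 (0.42) and Polr1b (0.25), the second largest subunit of RNA polymerase I. The brightest probe sets of 4833420G17Rik and Cep68 differed by 0.55 and -0.11 and did not pass (adjusted p = 0.199 and 0.916). Of the 44 genes, 25 had several probe sets, and in 2 of these all were called, so most calls rest on 1 probe set and thus on 1 stretch of the transcript.

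**Figure D2:**
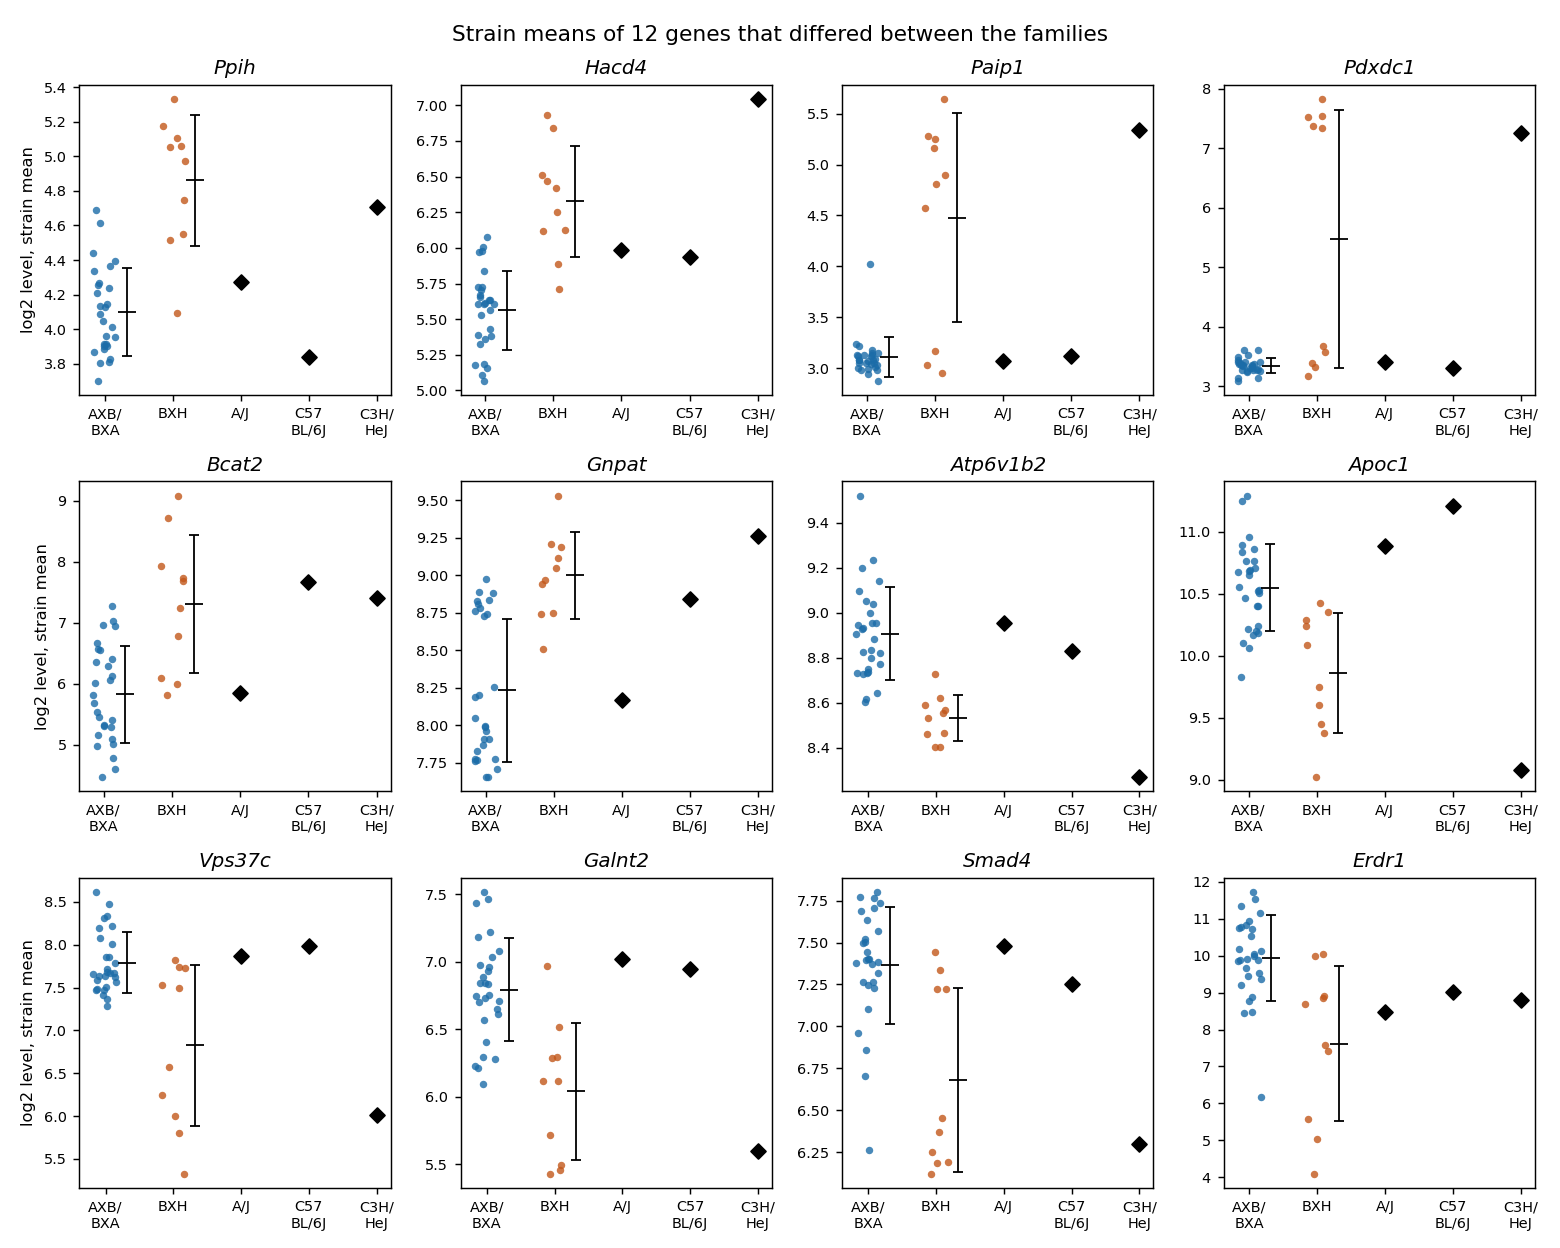
Strain means (log2, vertical axes) of 12 genes, each by its called probe set with the widest difference, in 28 AXB/BXA strains (blue) and 10 BXH strains (orange), with family mean ± SD as black bars, and the means of the parental arrays as diamonds. Paip1 and Pdxdc1 split the BXH strains into separate clusters of which one sits with AXB/BXA and the other near C3H/HeJ, Gnpat spreads more within AXB/BXA than within BXH, and Erdr1 ranges widely with no matching difference between parents.

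The parental arrays, which did not enter the family contrast, gave a separate measurement of the same probe sets. Between A/J and C3H/HeJ, 90 probe sets were called (0.403% of 22327). Of the 68 called between the families, 16 were also called between these parents, all in the same direction; they are 23.5% of the family calls and 17.8% of the parental calls. These counts rest on few arrays: leaving out 1 A/J or C3H/HeJ array gave 26 to 42 parental calls, of which 5 to 8 were among the 68. The sign of the parental difference matched in 60 of 68 (88.2%, against 52.3% over all probe sets), and the remaining 8 were not called in the parents. Across the 68 probe sets the family difference rose with the parental one (r = 0.85, slope 0.525; r = 0.328 over all probe sets), a description across probe sets that share strains and in part genes, the 68 being chosen for their family difference. For the genes also called in the parents with the widest differences, the parental value was the larger: Paip1 differed by -2.27 between the parents and -1.37 between the families, Hba-a1 by -3.72 and -1.55, Vps37c by 1.86 and 0.96, and Apoc1 by 1.81 (adjusted p = 0.000165) and 0.69. With 2 arrays each of A/J and C3H/HeJ, mostly wide parental differences could pass. The larger parental value of genes chosen for passing there thus follows in part from that choice. The 2 opposite Pdxdc1 probe sets were opposite in the parents too, at -3.85 (adjusted p = 4.58e-20) and 4.14 (adjusted p = 6.36e-11).

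**Figure D3:**
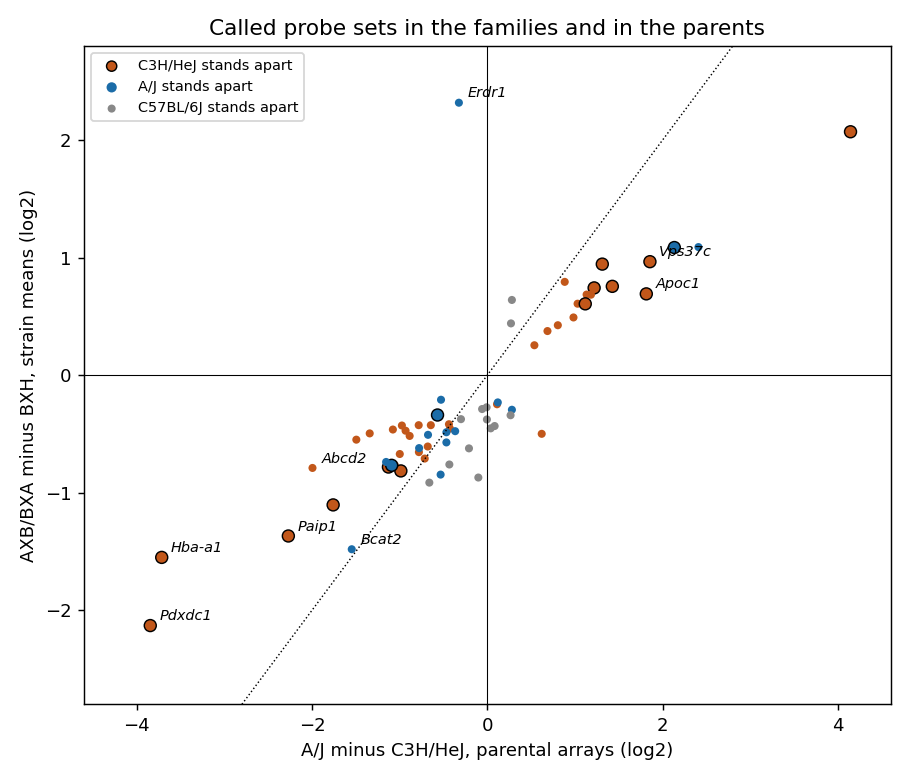
A/J minus C3H/HeJ on the parental arrays (log2, horizontal axis) against AXB/BXA minus BXH on strain means (log2, vertical axis) for the 68 called probe sets; colours mark the parent left over from the closest pair of parents, large outlined points the 16 also called between the parents, and the dotted line equality. Both differences have the same sign for 60 of 68 points, the widest parental differences are larger than the family ones, and Erdr1 is far from the line.

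With each probe set assigned to the parent left over once the 2 closest parents are paired, C3H/HeJ stood apart at 39 of the 68 called probe sets (57.4%, against 30.8% of all probe sets), A/J at 16 and C57BL/6J at 13. Among the 39, BXH was the family with the larger SD in 35, compared with 30.6% of all probe sets. Of these 39, 24 were higher in BXH and 15 higher in AXB/BXA, and a median of 6 of the 10 BXH strains lay nearer to C3H/HeJ than to C57BL/6J. The number of the 39 at which a BXH strain was nearer to C3H/HeJ ran from 15 in BXH20/KccJ to 31 in BXH4/TyJ. Among the 16 where A/J stood apart, AXB/BXA had the larger SD in 8, while over all probe sets BXH had it at only 30.6%. Of these 16, 13 were higher in BXH and 3 higher in AXB/BXA. Gnpat was a gene at which A/J stood apart: A/J lay at 8.17, C57BL/6J at 8.84 and C3H/HeJ at 9.26 (A/J against C3H/HeJ, adjusted p = 0.0164). Bcat2 was another, at 5.86 in A/J, 7.67 in C57BL/6J and 7.40 in C3H/HeJ, with a parental difference that did not pass (adjusted p = 0.456). Ppih, in contrast, had C57BL/6J lowest (3.84), with A/J at 4.27 and C3H/HeJ at 4.71, and its parental difference of -0.43 did not pass.

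The BXD strains, which share C57BL/6J as a parent and have DBA/2J as the other, were not part of the contrast and gave a further reference point. BXD32/TyJ was left out for its unexplained suffix, and 2 of the 27 strains used carry a named mutation in their label, BXD24/TyJ-Cep290<rd16>/J and BXD29-Tlr4<lps-2J>/J. The BXD mean over 27 strains lay between the means of the 2 families at 56 of the 68 called probe sets. Of the 68, it was nearer to BXH at 39 and nearer to AXB/BXA at 29. The 68 were chosen for their family difference, so a BXD mean between the family means follows in part from that choice. No share over all probe sets is given to set beside the 56. On the Paip1 probe set the BXD mean was 4.12 ± 1.04, between 3.11 ± 0.20 in AXB/BXA and 4.48 ± 1.03 in BXH, so BXD had a spread like that of BXH. On the first Pdxdc1 probe set the BXD mean was 5.69 ± 2.12. The Hba-a1 probe set (9.31 ± 0.87) and Klk1b9 (2.70 ± 0.13) were nearer to AXB/BXA in BXD.

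By gene order on GRCm38.p6, 43 of the 44 named genes could be placed, and 7 pairs of called genes lay within 10 measured genes of each other, 3 of them called in the same direction. The only adjacent pair was Paip1 and 4833420G17Rik, which were called in opposite directions (-1.37 and 0.68). At these genes 9 of the 10 BXH strains fell on the same side, toward C3H/HeJ or toward C57BL/6J, at both. By their called probe sets, Galnt2, Gnpat and Ntpcr lay near each other with differences of 0.75, -0.77 and -0.48, and Smad4, Rpl17 and Hdhd2 with 0.68, -0.51 and 0.42. No adjacent genes were called in 1 direction. The promoters of the opposite neighbours and of the most stable named calls are shown so that the sequence near these starts can be read beside their levels. RefSeq promoter windows of build GRCm38.p6 were held for 30 of the 44 genes. Each window below has 300 bases, reads 5′ to 3′ on the gene's strand and lies mostly upstream of the start. Paip1 is at chr13:119428350-119428649 (plus strand, the first of its 2 starts), 4833420G17Rik at chr13:119462509-119462808 (plus strand), Ppih at chr4:119320474-119320773 (minus strand) and Hacd4 at chr4:88438866-88439165 (minus strand).
Paip1: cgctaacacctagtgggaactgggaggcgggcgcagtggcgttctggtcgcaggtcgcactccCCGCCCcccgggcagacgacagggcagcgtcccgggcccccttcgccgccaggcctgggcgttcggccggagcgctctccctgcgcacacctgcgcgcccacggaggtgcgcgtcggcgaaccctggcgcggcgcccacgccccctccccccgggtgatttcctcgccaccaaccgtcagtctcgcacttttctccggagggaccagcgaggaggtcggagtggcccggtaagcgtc
4833420G17Rik: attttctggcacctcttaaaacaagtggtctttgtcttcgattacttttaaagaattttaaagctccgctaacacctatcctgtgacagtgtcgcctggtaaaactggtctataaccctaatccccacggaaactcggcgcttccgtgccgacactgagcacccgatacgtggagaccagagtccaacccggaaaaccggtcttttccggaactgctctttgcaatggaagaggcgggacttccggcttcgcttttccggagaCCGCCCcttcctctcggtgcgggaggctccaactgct
Ppih: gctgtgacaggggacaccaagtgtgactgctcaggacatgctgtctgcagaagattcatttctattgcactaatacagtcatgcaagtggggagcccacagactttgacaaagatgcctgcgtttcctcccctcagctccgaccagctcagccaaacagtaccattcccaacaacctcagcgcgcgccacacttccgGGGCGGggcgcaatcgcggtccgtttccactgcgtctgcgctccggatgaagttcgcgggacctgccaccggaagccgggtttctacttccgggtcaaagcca
Hacd4: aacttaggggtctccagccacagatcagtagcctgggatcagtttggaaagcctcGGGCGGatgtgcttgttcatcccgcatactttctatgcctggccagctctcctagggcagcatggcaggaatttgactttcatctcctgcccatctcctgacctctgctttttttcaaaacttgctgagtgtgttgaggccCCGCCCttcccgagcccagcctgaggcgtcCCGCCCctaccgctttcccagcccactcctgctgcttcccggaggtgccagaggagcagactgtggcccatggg
Capitals mark GC boxes, the letters GGGCGG on either strand, overlaps counted. The windows of Paip1, 4833420G17Rik and Ppih held 1 each and that of Hacd4 held 3; the window of the other Paip1 start, not printed, held 4. Of 32851 promoter windows, 35.7% held this motif. None of the windows shown held CCAAT (37.4% of all windows), TATAAA (13.6%) or CACGTG (7.15%) on either strand. The table gives the reference genome, and alleles of A/J or C3H/HeJ were not analysed here.

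Gene lists for the cell types and pathways of the aorta held 361 measured genes, each by its brightest probe set. Of these 1 was called (0.277%), against 29 of 11725 genes measured that way (0.247%), and 27 (7.48%) had an unadjusted p below 0.05, against 6.92% of all genes. The called gene was Apoc1, 1 of 20 lipid handling and atherosclerosis genes; the median of that list was -0.01, against 0.01 over all probe sets. No listed gene of the wall's own cell types was called. Of 15 smooth muscle contractile genes 0 passed (median 0.03; the potassium channel subunit Kcnmb1 had the smallest p, difference 0.39, adjusted p = 0.639). Of 24 elastic fibre and matrix genes 0 passed (median -0.03; the fibulin Efemp1 differed by -0.37, adjusted p = 0.571). Of 14 endothelial genes 0 passed and 7 had positive values (the nitric oxide synthase Nos3 differed by -0.24, adjusted p = 0.826), and of 7 adventitial fibroblast genes 0 passed (Clec3b -0.48, adjusted p = 0.534).

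Metabolic and fat lists gave no call either. The adipocyte hormone resistin, Retn, lay at 8.33 ± 0.62 in AXB/BXA and 9.14 ± 0.66 in BXH (difference -0.81, adjusted p = 0.131); 9 of the 10 measured adipocyte genes had negative values, with a list median of -0.16. Among 7 brown adipocyte genes the fatty acid elongase Elovl3 had the smallest p (-0.66, adjusted p = 0.639). The sterol synthesis regulator Srebf2 (0.14, adjusted p = 0.849), the ATP synthase subunit Atp5j (-0.20, adjusted p = 0.683) and the superoxide dismutase Sod2 (-0.14, adjusted p = 0.763) had the smallest p of the sterol, respiratory chain and xenobiotic lists. Of 13 circadian clock genes none passed; the period gene Per3 ran from 4.82 to 6.19 in AXB/BXA and from 5.25 to 7.39 in BXH (difference -0.61, adjusted p = 0.182). The immediate early gene Egr1 differed by -0.49 (adjusted p = 0.512).

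Immune lists held wide differences with wide spread. The class I gene H2-Q10 lay at 6.20 ± 2.11 in AXB/BXA and 8.07 ± 1.19 in BXH, a difference of -1.87 that did not pass (adjusted p = 0.412); the parents A/J and C3H/HeJ differed by -4.11 (adjusted p = 0.00626), with A/J at 3.89. The interferon-inducible gene Ifi205 lay at 6.03 ± 1.51 and 7.54 ± 0.82 (difference -1.51, adjusted p = 0.274). The GTPase Gbp2 differed by -0.34 (adjusted p = 0.360), the class II gene H2-Ab1 by -0.36 (adjusted p = 0.916), the antiviral gene Rsad2 by -0.44 (adjusted p = 0.663), and the adaptor Traf6 of Toll-like receptor signalling by -0.13 (adjusted p = 0.501). Of 20 macrophage genes 17 had negative values and 0 passed (Tyrobp -0.46, adjusted p = 0.713). The B cell gene Ms4a1 (-0.59, adjusted p = 0.870) and the chemokine Ccl2 (0.12, adjusted p = 0.788) had the smallest p of their lists.

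Most genes of squamous epithelium and thymus had higher means in AXB/BXA without a call, beside the larger share of AXB/BXA arrays above 1 on those scores. The scores average these same genes by the same probe sets, so the scores and the list values are not separate measurements. The part of neighbouring tissue RNA in them was not tested. Of 14 squamous epithelium genes 13 had positive values (median 0.68; Krt5 1.09, adjusted p = 0.664; Trp63 0.42, adjusted p = 0.512), and of 11 thymocyte genes 10 did (median 0.38; Rag1 0.64, adjusted p = 0.907). The thymocyte list's smallest p was that of Cd1d1, which had a negative value (-0.45, adjusted p = 0.491). Of 11 cell cycle genes 10 were positive (median 0.19; Bub1 0.10, adjusted p = 0.811). The medians were -0.26 for 9 cardiac muscle genes (Mybpc3 -0.63, adjusted p = 0.796), -0.06 for 15 skeletal muscle genes (Mb -0.28, adjusted p = 0.871) and -0.06 for 5 Schwann cell genes (Mal -0.19, adjusted p = 0.908). All 3 measured Y-linked genes had negative values, the largest in Eif2s3y (-0.58) and the smallest p in Uty (-0.32, adjusted p = 0.148).

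**Figure D4:**
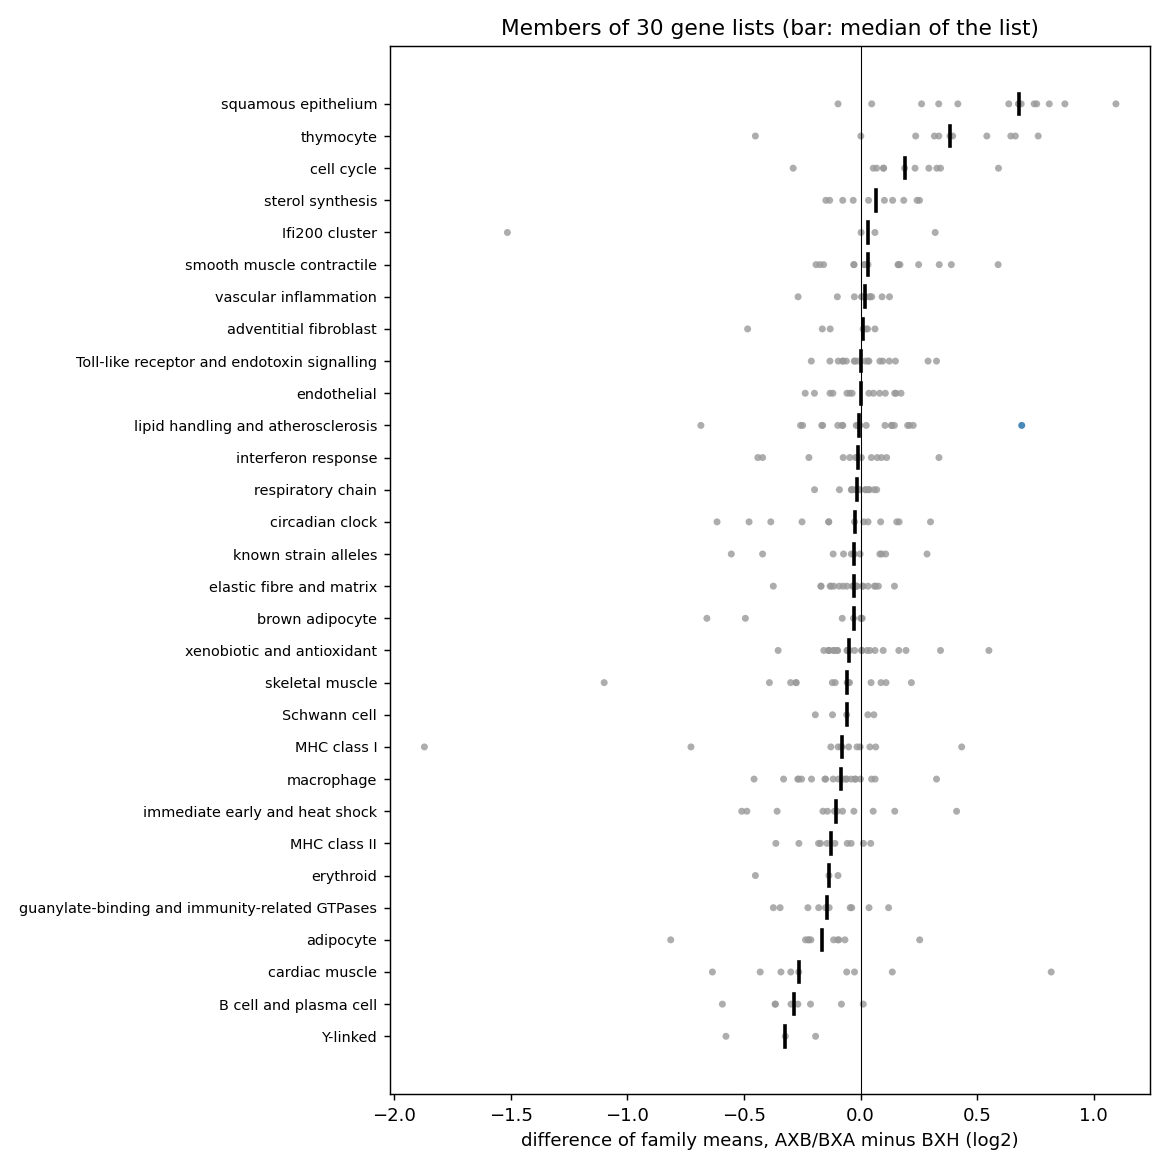
Differences of family means (AXB/BXA minus BXH, log2, horizontal axis) of the measured members of 30 gene lists, 1 point per gene by its brightest probe set, with the list median as a black bar. The blue point is Apoc1, the only called member. The list medians of squamous epithelium and thymocyte genes lie furthest to the right.

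None of 12 measured genes with known alleles in a mouse strain passed the family contrast. The endotoxin receptor Tlr4, whose C3H/HeJ allele carries a coding defect, ran from 4.15 to 5.45 in AXB/BXA and from 4.39 to 5.05 in BXH (difference -0.03, SE 0.11, adjusted p = 0.982). Dysferlin, Dysf, was lower in A/J (4.49) than in C57BL/6J (5.80) and C3H/HeJ (5.40), but AXB/BXA and BXH lay at 5.77 and 5.48 (difference 0.28, adjusted p = 0.778). The mitochondrial transhydrogenase Nnt, deleted in part in C57BL/6J, was lowest in that parent (6.01) and lay at 8.14 and 8.22 in the families (adjusted p = 0.974). Glyoxalase Glo1 (0.11), Naip5 (-0.12), Pde6b (0.09), Slc11a1 (-0.03), Hc (-0.002), Irf8 (-0.42), Ahr (0.08), Alad (-0.55) and Entpd4 (-0.04) also did not pass, with adjusted p from 0.600 (Pde6b) to 0.999 (Hc). Pla2g2a, the other gene of that list, was not measured as a named probe set.

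When arrays rich in RNA of thymus or squamous epithelium were left out, the called differences kept their direction while most lost their call. In that fit, 20 AXB/BXA and 9 BXH strains remained and 7 probe sets were called, all among the 68: both of the stated Ppih probe sets, Paip1, Gnpat, Atp6v1b2, B3galt2 and the unnamed 1449716_s_at. All 68 kept their sign there, and the differences of the 44 named genes were 0.703 to 1.42 times their full values (median 1.00). With the thymocyte, squamous and skeletal muscle scores as covariates, 50 probe sets were called and the differences were 0.784 to 1.16 times the full values. The labels number the arrays, with a gap in the series just before 1067 whose meaning they do not give. With only the lower numbers (13 AXB/BXA and 4 BXH strains) 0 probe sets were called by limma (1016 at an unadjusted p below 0.05), and with only the higher ones (18 and 7 strains) 45 were. All 68 had the same sign in both. These fits reuse arrays on which the 68 were chosen, so the kept signs are no separate check. Apoc1 differed by 0.96 and 0.63 within these ranges, Ppih by -1.05 and -0.63, Hacd4 by -0.78 and -0.75, Paip1 by -0.89 and -1.40, and Hba-a1 by -0.45 and -1.86.

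The count of calls also depended on single strains. Leaving out each of the 38 strains in turn gave 34 to 87 called probe sets. The lowest counts came without BXH19/TyJ (34), BXH8/TyJ (36) and BXH6/TyJ (39), and the highest without BXA16/PgnJ (87). BXA16/PgnJ was the AXB/BXA strain nearest to the BXH side at 17 of the 68 probe sets, more than BXA11/PgnJ with 7. Besides Paip1 and Cox18, these 17 included probe sets of Ppih, Smad4, Srd5a3, Apcdd1, Pla2g2d, Epb41l1, Ntpcr and Ctdspl. With BXA16/PgnJ represented by replicate 3 only, 87 probe sets were called, 67 of the 68 among them. Ppih, Paip1, Hacd4, Pdxdc1, Gnpat, Apoc1, Atp6v1b2, Cox18, Galnt2, Srd5a3, Klf9, Chrdl1 and D930016D06Rik were called in each of the 38 leave-one-out fits, while Enpp4 was called in 8, Rnf121 in 9 and Abcd2 in 10.

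**Figure D5:**
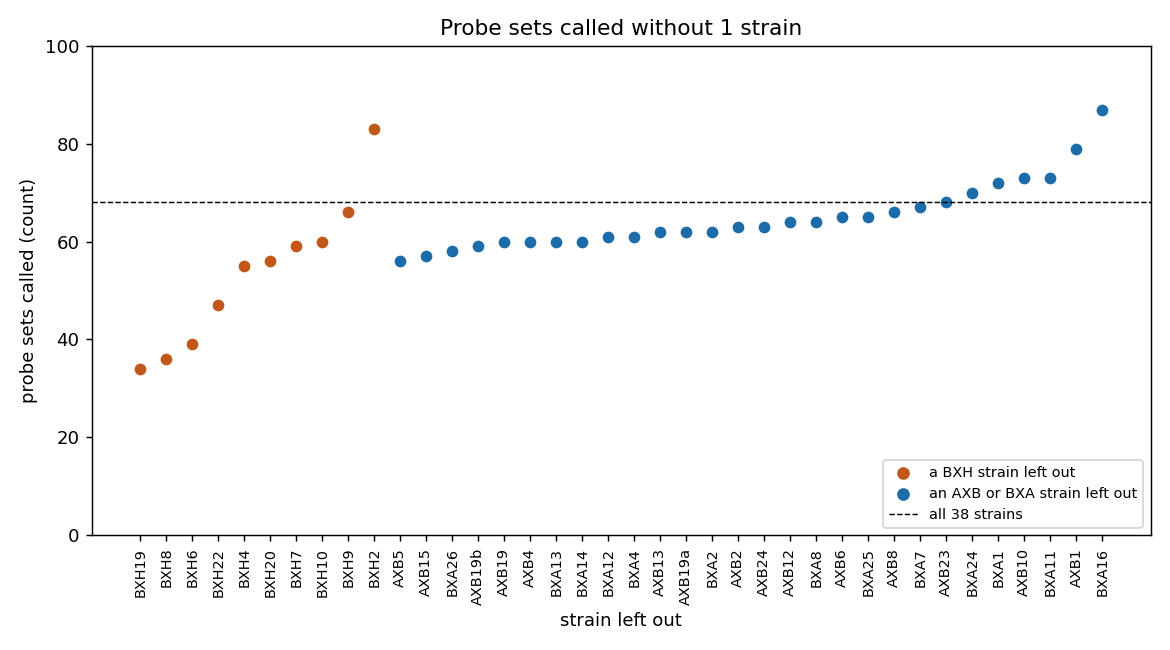
Number of probe sets called (vertical axis) when the strain named on the horizontal axis is left out, for the 10 BXH strains (orange) and the 28 AXB and BXA strains (blue); the dashed line marks the 68 called with all strains. Leaving out BXH19, BXH8 or BXH6 gave 34 to 39 calls, and leaving out BXA16 gave 87.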

How the data were processed

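Total RNA of mouse aorta had been hybridised to HT_MG-430A arrays. The deposited values are log2 expression values per probe set and array, read with GCOS and summarised by RMA per the submitters' processing notes, with no version stated. RMA adjusts background, quantile-normalises arrays and summarises probes. Array medians were 4.56 to 4.88 over the 80 arrays, whose number limits the precision. No array column lacked a label. Of 22416 probe sets, 89 controls were left out. Of the 22327 tested, 17783 carried 1 gene symbol, 284 several and 4260 none in the platform annotation. The gene of 17759 of the 17783 was found in a GRCm38.p6 gene list, which changed 0 symbols.

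Arrays of a strain were averaged, and the family difference (AXB/BXA minus BXH) was fitted with limma 3.58.1 in R 4.3.3 without covariates, called below an adjusted p of 0.05. Nothing in the labels says that arrays came from separate animals, but the strain is the replicate. A/J and C3H/HeJ were contrasted in an array-level limma fit of all strains (93 residual degrees of freedom; BXD32/TyJ left out for an unexplained suffix). The fit was tested on simulated data. Genes were named by rule: the 12 widest called differences in each direction (11 existed upward), members of each list with the smallest p, genes with known strain alleles, other probe sets of named genes, and runs of neighbouring called genes. The remaining called genes, the unnamed probe sets and the BXA16/PgnJ comparison were chosen after their values were seen. The members and lists were chosen with earlier results of these data known. A two-sided permutation test over strains (100000 resamples) gave p from 1e-05, the smallest it can give, to 0.00044 for the 44 called genes, which were chosen on the same values.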

Additional observations from a re-analysis of the deposited data

Results flagged for a closer look

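For 121 genes the highest or lowest of the 10 BXH strain means was compared with the nearest other strain, and 9 were far from it; about 1 in 20 is reached by chance. BXH9/TyJ was the strain in 4 of them: Entpd4 was low at 6.84 (next 7.41), Trp63 high at 4.73 (next 3.70), Usp18 high at 5.64 (next 4.75) and Uqcr10 low at 12.10 (next 12.34). BXH2/TyJ was the strain in 3: St6galnac4, a called gene, was high at 3.57 (next 3.26), Cd1d1 low at 9.33 (next 10.04) and Eif2s3y low at 5.34 (next 6.89). Ighm was high in BXH20/KccJ at 4.01 (next 3.54), and Fdps was low in BXH19/TyJ at 6.14 (next 7.08). Of these genes, St6galnac4 passed the family contrast.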

How the results depend on the processing

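The 68 calls became 198 with arrays fitted and the strain as a random block, 103 with 1 weight per family, 24 with AXB strains only and 4 with BXA strains only, 45 with arrays numbered 1067 or above, 0 below 1067 (limma; 1016 at an unadjusted p below 0.05), 7 without arrays high in thymocyte or squamous genes, 22 among 7796 probe sets with a mean above 6 (11 in each direction) and 20 among 11725 with 1 probe set per gene. Several of these tested fewer strains or probe sets, and the fit with a random block counted arrays of a strain almost as separate replicates. Leaving out 1 strain gave 34 to 87. The other planned settings gave 50 to 72, and those added after seeing the data 85 and 87. Every main call kept its sign in each setting that tested it, but all settings reuse arrays on which these calls were chosen, so kept signs are no separate check. The 90 parental calls became 34 with only the 4 parents, 47 above a mean of 6 and 26 to 42 without 1 array, and 5 to 8 of the family calls were then called. Of 121 genes followed across settings, 24 changed sign in at least 1 (Tlr4 ran from -0.12 to 0.08 and Nnt from -0.37 to 0.38); none of the 44 called genes was among them, and none of the 24 was called in any setting. Where no cause is given, it was not tested. No paired analysis was possible because the labels give strains no shared replicate numbers. Dim probe sets limit the smallest differences.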

Other observations

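With arrays as units and the strain as a random block, 5 list members were called in place of 1. Besides Apoc1 these were Per3 (-0.60, adjusted p = 0.0231), Retn (-0.76, adjusted p = 0.0114), Ifi205 (-1.60, adjusted p = 0.00859) and H2-Q10 (-1.93, adjusted p = 0.0383), all 4 with higher means in BXH. The consensus correlation of arrays of a strain in that fit was 0.104, shared by all probe sets. Arrays of a strain thus counted almost as separate replicates, also for genes whose strain means spread widely. The 4 added calls therefore rest on arrays more than on strains. With the strain as the replicate, the adjusted p from limma was 0.182 for Per3, 0.131 for Retn, 0.274 for Ifi205 and 0.412 for H2-Q10.

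With BXA16/PgnJ represented by its replicate 3 array, an alternative added after seeing the data, the probe sets called in addition included Fblim1, a filamin-binding adaptor of cell adhesions (0.99 higher in AXB/BXA, adjusted p = 0.0419), and, higher in BXH, the orphan receptor Gprc5b (-0.83, adjusted p = 0.0419), the phosphorylase kinase subunit Phkg1 (-0.86, adjusted p = 0.0440) and Ocel1 (-0.86, adjusted p = 0.0260). These 4 are the named ones with the widest differences.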
